A study of Mus musculus with 2 samples.

Results

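The genes of arginine, nitric oxide and polyamine metabolism were followed in dendritic cells, which present antigen to T cells, grown from mouse bone marrow with the cytokine GM-CSF. The group holds 10 of the 23238 gene symbols of the count tables: Slc7a2, Nos2, Gch1, Ass1, Arg1, Arg2, Odc1, Srm, Sat1 and Oat. They were chosen by name, with the fold changes of these same libraries known, so their values are a description and carry no test. The UNE-C1 group is 1 library from cells given 100 nM UNE-C1 for 24 h, and the control group is 1 library whose added agent, if any, the labels do not give. UNE-C1 is an extra domain that the enzyme cysteinyl-tRNA synthetase carries, and it is known to act through the innate immune receptors TLR2 and TLR6. Both cultures came from marrow of female C57BL/6 mice aged 7 weeks, received 20 ng/ml GM-CSF with renewal on day 3, and were harvested on day 6 as non-adherent and loosely attached cells. The labels do not state whether marrow of several animals was pooled. RNA was read near the 3′ end of each messenger, so read numbers do not scale with transcript length. With 1 library a group there is no replicate error, and every interval below covers counting error only.

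Arginine is the substrate of competing enzymes. Nitric oxide synthases turn it into nitric oxide and citrulline, and arginases turn it into urea and ornithine, which feeds polyamines (putrescine, spermidine and spermine) and proline. In mouse macrophages and dendritic cells the inducible synthase Nos2 is a classic product of microbial and interferon signals, whereas Arg1 is best known from responses to interleukin-4, although microbial ligands can also raise it.

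The UNE-C1 library held far more messenger of the arginine carrier Slc7a2, the synthase Nos2 and the arginase Arg1. The members that turn ornithine into polyamines or proline were level or lower. In the UNE-C1 library Slc7a2, Nos2, Gch1 and Arg1 exceeded the control by 2-fold or more, Srm was below it by as much, and Arg2, Odc1, Sat1 and Oat lay between these bounds. Ass1 had fewer than 50 reads in both libraries and was not counted. The members past a floor of 50 reads in either library numbered 9, of which 4 were higher and 1 was lower by 2-fold or more, and among all 10469 genes past it these shares were 9.31% and 9.42%. Differences of 8-fold or more were found for 3 members above the control (Slc7a2, Nos2 and Arg1) and 0 below it, beside 1.17% and 0.353% of all genes. Since the same contrast chose the genes, nothing is read from these differences. Levels are CPM, read counts scaled to a common library size with the TMM method of edgeR, and the 2-fold bound was set on the log2(CPM + 1) scale. Together the 10 genes took 0.243% of the reads of the UNE-C1 library and 0.0521% of those of the control.

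**Figure D1:**
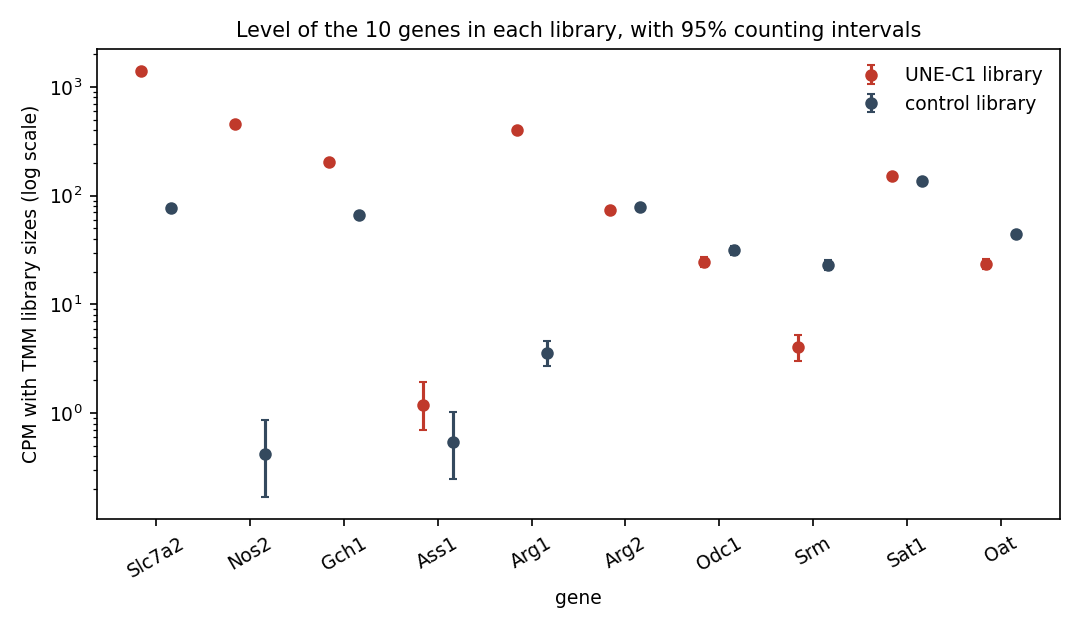
Level of each of the 10 genes in the UNE-C1 library (red, left of each pair) and the control library (dark, right), in CPM on a log axis, with exact Poisson 95% counting intervals. Nos2 stands at 459 CPM with UNE-C1 and 0.418 CPM in the control, Arg1 at 400.3 CPM and 3.59 CPM, and Srm is the gene with the widest gap in the other direction.

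Of the members, the arginine carrier had the highest level in the UNE-C1 library. Slc7a2 (chromosome 8, 40862396 to 40922308, plus strand; all positions are on GRCm38) encodes CAT2, a carrier that brings arginine into the cell. It had 19739 reads in the UNE-C1 library and 1293 in the control, which is 1392 CPM against 77.3 CPM. The plain CPM ratio was 18.01 (exact 95% counting interval 17.02 to 19.1), and the log2 fold change of 4.15 ranked 45 from the top of the 10469 genes. The carrier for the same substrate that most cells use, Slc7a1, stood at 192 and 314 reads with a log2 fold change of -0.44, and Slc7a3 at 9 reads in each library. Slc7a2 thus made up 99.0% of the reads of these 3 carriers in the UNE-C1 library (exact binomial 95% interval 98.8 to 99.1) and 80.01% in the control (78.0 to 81.9). A share within 1 library does not depend on how the libraries are scaled against each other. Slc7a2 was left out of the search for similar 3′ ends, because its tail holds a dispersed repeat.

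Nos2 (chromosome 11, 78920787 to 78960254, plus strand) had 6510 reads in the UNE-C1 library (exact Poisson 95% interval 6353 to 6670) and 7 in the control (2.81 to 14.4). These correspond to 459 and 0.418 CPM. Its log2 fold change of 8.34 ranked 1 of 10469, and the ratio, which rests on 7 control reads, has an interval of 532 to 2730. The other nitric oxide synthases were nearly unread: the neuronal Nos1 had 4 reads in the UNE-C1 library and 0 in the control, and the endothelial Nos3 had 13 and 18. Nos3 shares its 3′ end with Atg9b on the other strand, so even these few reads are uncertain.

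Gch1 (chromosome 14, 47153895 to 47189413, minus strand) encodes GTP cyclohydrolase, the first enzyme of tetrahydrobiopterin synthesis, and nitric oxide synthases need tetrahydrobiopterin as a cofactor. It had 2900 reads in the UNE-C1 library and 1121 in the control, or 204 and 67.0 CPM (ratio 3.05, interval 2.85 to 3.27; log2 fold change 1.60). The rest of the cofactor pathway did not share this direction. Of its 6 other listed genes 4 passed the floor, and all 4 lay below 0, with a median of -0.59 beside a median of -0.00 over all genes compared. None was lower by 2-fold or more, against Qdpr alone with upper-quartile scaling or a pseudocount of 0.1, and Qdpr and Pts with total counts. Qdpr, which regenerates the used cofactor, had a log2 fold change of -0.99, and Pts and Spr, which act after Gch1, -0.90 and -0.11. Akr1b3, an aldose reductase with a minor role in the pathway, had -0.28, and the inhibitor of Gch1, Gchfr, had 6 and 5 reads. The 4 genes stayed below 0 under all 3 other scalings tried. With no floor the median of the 6 genes was -0.19, and the 2 under the floor lay above 0.

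The 250 bases before the annotated start of Gch1 and of Oat are shown. Gch1 was at least 2-fold higher, whereas Oat was lower but within 2-fold with TMM scaling. These members were taken because they lie on opposite sides of 0 and their annotated starts match in both gene sets used. Capitals mark matches to the GC box GGGCGG and the CCAAT box CCAAT, on either strand. The sequences are RefSeq promoters on GRCm38.p6, printed 5′ to 3′ on the minus strand. Gch1 lies at chr14:47189414-47189663 and Oat at chr7:132576399-132576648.
Gch1: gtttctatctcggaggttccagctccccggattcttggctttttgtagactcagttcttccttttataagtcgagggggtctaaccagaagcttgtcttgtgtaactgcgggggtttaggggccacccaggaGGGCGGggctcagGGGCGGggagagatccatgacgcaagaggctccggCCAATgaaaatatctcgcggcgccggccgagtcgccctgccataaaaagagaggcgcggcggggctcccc
Oat: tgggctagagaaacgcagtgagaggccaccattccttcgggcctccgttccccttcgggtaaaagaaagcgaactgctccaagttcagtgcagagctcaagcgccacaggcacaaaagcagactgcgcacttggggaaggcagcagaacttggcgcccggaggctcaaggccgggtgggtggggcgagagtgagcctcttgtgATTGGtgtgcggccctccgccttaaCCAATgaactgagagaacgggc
Gch1 held 2 GC boxes and 1 CCAAT box, and Oat held 2 CCAAT boxes. Among the members searched, a GC box was also found in Odc1 and Sat1, which lay within 2-fold, and in Ass1, which was under the floor. Of the members searched, only Gch1 was at least 2-fold higher and none was lower by as much. Higher and lower members therefore cannot be compared for this box. No other member searched held a CCAAT box. Of 32851 promoters searched, 32.7% held a GC box and 33.85% a CCAAT box, so both are common. RefSeq promoters were matched for 5 of the 10 genes (Gch1, Odc1, Sat1, Oat and Ass1), and none of the 5 windows held the letters searched for 3 inducible elements: TTCNNNGAA for STAT binding (7.02% of all promoters), the interferon response core, GAAA repeated after any 2 bases (2.98%), and the NF-kappaB site, GGGA and TCC spaced by any 3 bases (3.86%). The hypoxia response core ACGTG (16.6% of all promoters) was found in Ass1, within a match to the E-box CACGTG (6.02%), and in none of the other 4 windows, and the cyclic AMP element TGACGTCA (1.55%) in none of the 5. All motifs were searched on both strands. A window of this length says nothing of sites elsewhere.

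Arg1 (chromosome 10, 24915221 to 24927484, minus strand), the cytosolic arginase, had 5678 reads in the UNE-C1 library and 60 in the control. Its level was 400.3 CPM in the UNE-C1 library and 3.59 CPM in the control, a ratio of 112 (interval 86.6 to 146), and its log2 fold change of 6.45 ranked 5. The mitochondrial arginase Arg2 (chromosome 12, 79130777 to 79156301, plus strand) had 1042 and 1313 reads, or 73.5 and 78.5 CPM. The ratio was 0.936 (0.862 to 1.02), so the Arg2 difference lies within counting error with TMM scaling (log2 fold change -0.09; -0.43 with total counts). The last 285 bases of Arg2 overlap the end of Vti1b on the other strand. Whether reads were counted by strand is not stated, and Vti1b had 1374 reads in the UNE-C1 library and 1669 in the control (log2 fold change -0.04).

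The makeup of the arginase reads was therefore the reverse in the 2 libraries. Arg1 held 84.5% of the reads on both arginases in the UNE-C1 library (83.6 to 85.4) and 4.37% in the control (3.35 to 5.59). Of the reads on Nos2, Arg1 and Arg2, which compete for arginine, Nos2 held 49.2% in the UNE-C1 library (48.4 to 50.1), and 7 of 1380, or 0.507% (0.204 to 1.04), in the control. Of those on Nos2 and Arg1 alone, Nos2 held 53.4% in the UNE-C1 library (52.5 to 54.3), and 7 of 67, or 10.4% (4.30 to 20.3), in the control.

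**Figure D2:**
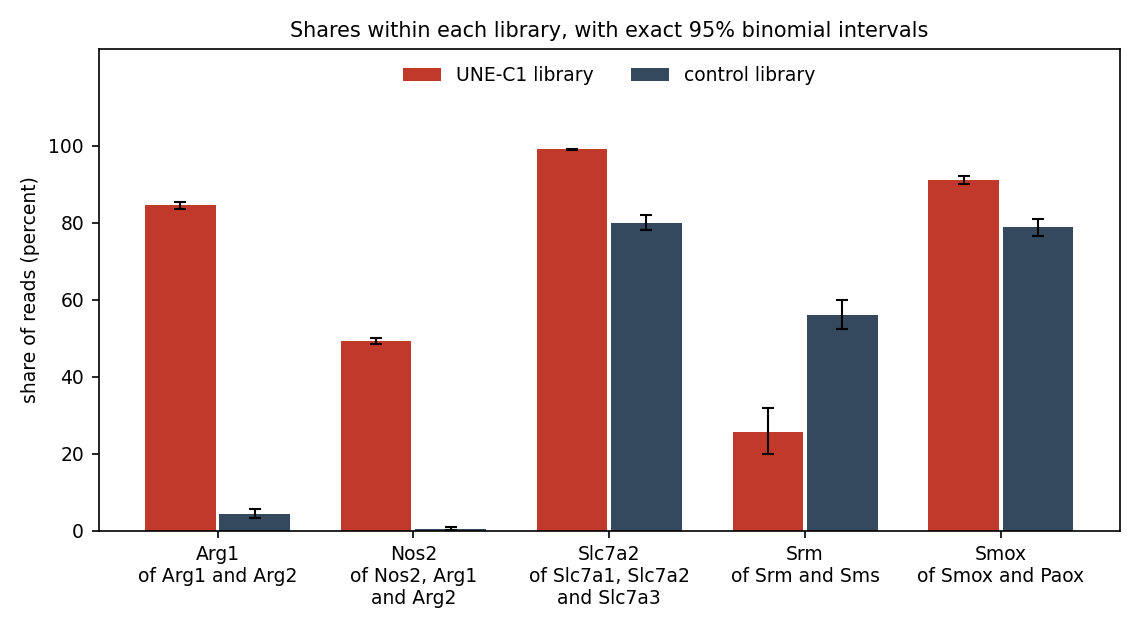
Share of reads, in percent, taken by 1 gene of a set within the UNE-C1 library (red, left) and the control library (dark, right), with exact binomial 95% intervals. The Arg1 share of arginase reads shows the widest gap of the 5 shares drawn, at 84.5% and 4.37%, and only the Srm share is smaller in the UNE-C1 library.

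Ass1 (chromosome 2, 31470207 to 31520672, plus strand) encodes argininosuccinate synthase, which with argininosuccinate lyase, Asl, rebuilds arginine from the citrulline that nitric oxide synthase releases. Its symbol had 17 reads in the UNE-C1 library and 9 in the control, a ratio of 2.23 with an interval of 0.939 to 5.67. The symbol Gm5424, annotated as a processed pseudogene of chromosome 10 (62071123 to 62072362, plus strand), had 4769 reads in the UNE-C1 library and 3272 in the control. The GENCODE M21 transcripts of Ass1 and Gm5424 aligned over 1240 bases with 6 mismatches and no gap, an identity of 99.5%. Only 0.355% of the reads on both symbols were given to Ass1 in the UNE-C1 library and 0.274% in the control. With the reads of both added, the level was 337 CPM in the UNE-C1 library and 196 CPM in the control, a ratio of 1.72 (interval 1.65 to 1.80) and a log2 fold change of 0.78. This sum was made after the values were seen. In RefSeq, Gm5424 is a transcribed pseudogene of 1550 bases that runs 209 bases past its end in GENCODE, and from which of the genes the reads came was not tested. The level of Ass1 itself is therefore unknown, and the small count on its symbol is no sign of absence. Asl had 266 reads in the UNE-C1 library and 197 in the control (log2 fold change 0.63).

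Of the polyamine enzymes, the first, ornithine decarboxylase, differed little and the next was clearly lower. Odc1 (chromosome 12, 17544794 to 17551505, plus strand), which makes putrescine from ornithine, had 350 reads in the UNE-C1 library and 525 in the control, or 24.7 and 31.4 CPM (ratio 0.786, interval 0.685 to 0.902; log2 fold change -0.33). Srm (chromosome 4, 148591503 to 148594993, plus strand), the spermidine synthase that extends putrescine, had 57 reads in the UNE-C1 library and 385 in the control, or 4.02 and 23.0 CPM. It was 5.73-fold lower (interval 4.33 to 7.70), with a log2 fold change of -2.26 that ranked 112 from the bottom of the 10469 genes. Srm held 25.6% of the reads on Srm and the spermine synthase Sms in the UNE-C1 library (20.0 to 31.8) and 56.1% in the control (52.3 to 59.9). The log2 fold change of Sms was -0.58.

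Sat1 (chromosome X, 155213132 to 155216449, minus strand) acetylates spermidine and spermine for breakdown or export. Its 2163 reads in the UNE-C1 library and 2293 in the control gave 152 and 137 CPM, a log2 fold change of 0.15 that turned to -0.19 with total counts. Oat (chromosome 7, 132557478 to 132576398, minus strand), the mitochondrial aminotransferase that sends ornithine towards proline and glutamate, had 332 and 742 reads, or 23.4 and 44.3 CPM. Oat was 1.89-fold lower (interval 1.66 to 2.16), with a log2 fold change of -0.89 that passed the 2-fold bound, at -1.23, with total counts, where the median of all genes was -0.33. The last 500 bases of Odc1, Srm and Sat1 also resemble processed copies elsewhere. One Odc1 copy, Gm15645, had 2 reads in the UNE-C1 library and 9 in the control. The other copies have no entry under their GENCODE names among the symbols counted.

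**Figure D3:**
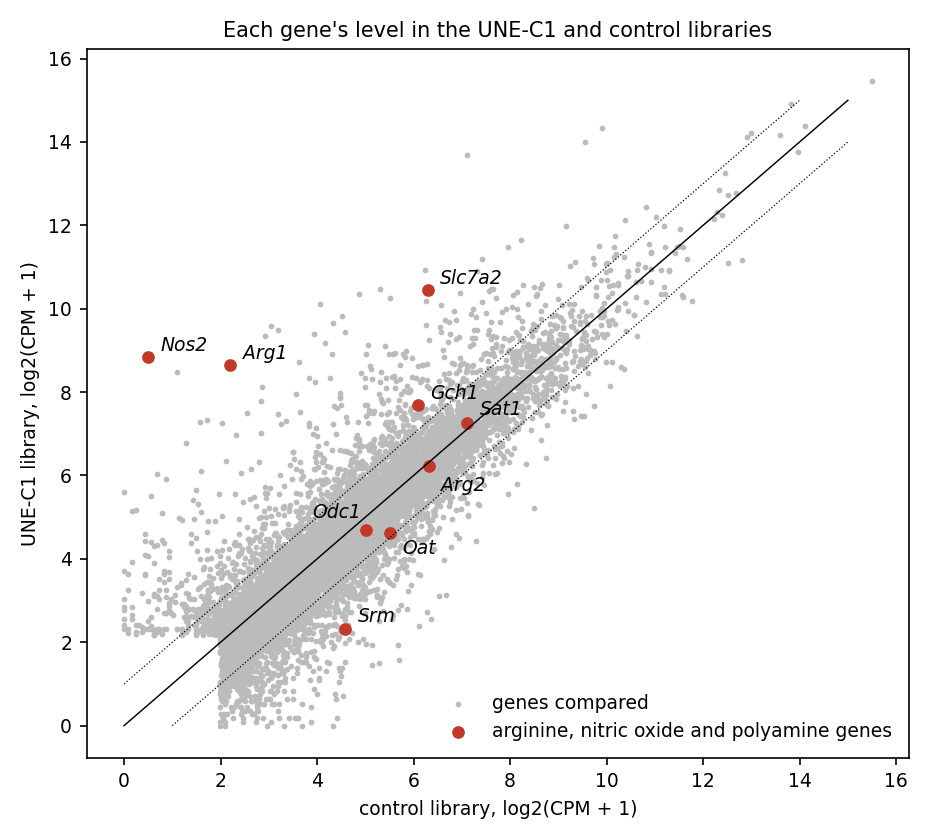
Level of every gene past the floor of 50 reads, as log2(CPM + 1), in the UNE-C1 library (vertical axis) and the control (horizontal axis). The solid line marks equal levels and the dotted lines the 2-fold bounds; of the 9 members drawn in red, Nos2, Arg1, Slc7a2 and Gch1 lie above the upper line and Srm lies below the lower one.

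Other genes of the same pathways mostly stayed within 2-fold, and so did most genes in the data. Of all 10469 genes compared, 9.31% were higher and 9.42% lower by 2-fold or more. The lists were chosen with results known, so nothing is read from their counts. Of 16 further genes of arginine supply and nitric oxide, 7 passed the floor, none was at least 2-fold higher and 1 was lower (median 0.06, which turned to -0.22 with total counts and -0.02 with upper-quartile scaling, and was 0.42 with a floor of 200 reads). That gene was Slc7a6, a transporter of basic and neutral amino acids, with 40 reads in the UNE-C1 library and 121 in the control (2.56-fold lower, interval 1.78 to 3.76). Its partner chain Slc3a2 had 14128 and 10402 reads (log2 fold change 0.68), and Prmt1, which methylates protein arginine, 782 and 1186 (-0.36). Ddah1, Cps1 and Agmat had 0 reads in both libraries, which allows up to 0.211 CPM in the UNE-C1 library and 0.179 CPM in the control. Of 6 genes of nitric oxide sensing and nitrosothiol removal, the 3 past the floor lay within 2-fold: Txnrd1, Adh5 and Cyb5r3 had log2 fold changes of 0.54, 0.44 and 0.39. The subunits of the nitric oxide receptor guanylate cyclase, under their older symbols Gucy1a3 and Gucy1b3, had 6 and 1 reads in the UNE-C1 library and 5 and 4 in the control.

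Of 20 further polyamine genes, 15 passed the floor, 1 was at least 2-fold higher and 3 were at least 2-fold lower (5 with total counts; median -0.47). The higher gene was Smox, spermine oxidase, which turns spermine back into spermidine and releases hydrogen peroxide. It stood at 176 CPM in the UNE-C1 library and 65.1 CPM in the control (ratio 2.70, interval 2.52 to 2.90). The related Paox, which oxidises acetylated polyamines, had 243 and 294 reads (log2 fold change -0.03). Lower were Ahcy, which clears S-adenosylhomocysteine (35 and 148 reads), Atp13a3, a polyamine transporter (241 and 819 reads), and Eif5a, the translation factor that carries the spermidine-derived residue hypusine (2882 and 7408 reads). Ahcy shares its 3′ end with Gm4737, which held 25 reads with UNE-C1 and 97 in the control.

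Amd1 and Amd2, which supply the aminopropyl donor for Srm and Sms, are near-identical copies, and their summed reads were 879 in the UNE-C1 library and 1592 in the control (log2 fold change -0.61). Mat2a, which makes S-adenosylmethionine, stood at -0.64, the lysosomal polyamine exporter Atp13a2 at 0.40, and the antizyme inhibitor Azin1, which protects ornithine decarboxylase, at 0.13. Antizyme Oaz1 showed the same split as Ass1, with 19 and 24 reads on its own symbol beside 3211 and 3281 on its copy Oaz1-ps. The 3′ ends of Akr1b3, Spr, Sms, Mat2a, Eif5a and Glul also match copies elsewhere. Those of Qdpr and Irf1 overlap genes on the other strand. Most of these copies and overlapping genes have no entry under their GENCODE names among the symbols counted. The Akr1b3 copy Gm6644 had 345 reads in the UNE-C1 library and 500 in the control, about as many as Akr1b3 itself with 344 and 495.

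Of 13 further genes of ornithine, proline and glutamate, 10 passed the floor, 2 were at least 2-fold higher and none was lower (median -0.22, which turned to 0.04 with a floor of 200 reads and was -0.54 with total counts). Both higher genes encode prolyl 4-hydroxylase subunits, which modify proline within collagen and are known hypoxia-inducible genes, not enzymes of free proline. P4ha1 had 2539 reads in the UNE-C1 library and 547 in the control (ratio 5.48, interval 4.99 to 6.02). P4ha2 had 485 and 2 reads, with an interval of 78.8 to 2369 for the ratio. Glul, glutamine synthetase, had a log2 fold change of -0.95 (lower than -1 with total counts and upper-quartile scaling), Got1 0.92 and Got2 0.18. Slc25a15, which carries ornithine into mitochondria, had 50 reads in the UNE-C1 library and 105 in the control.

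**Figure D4:**
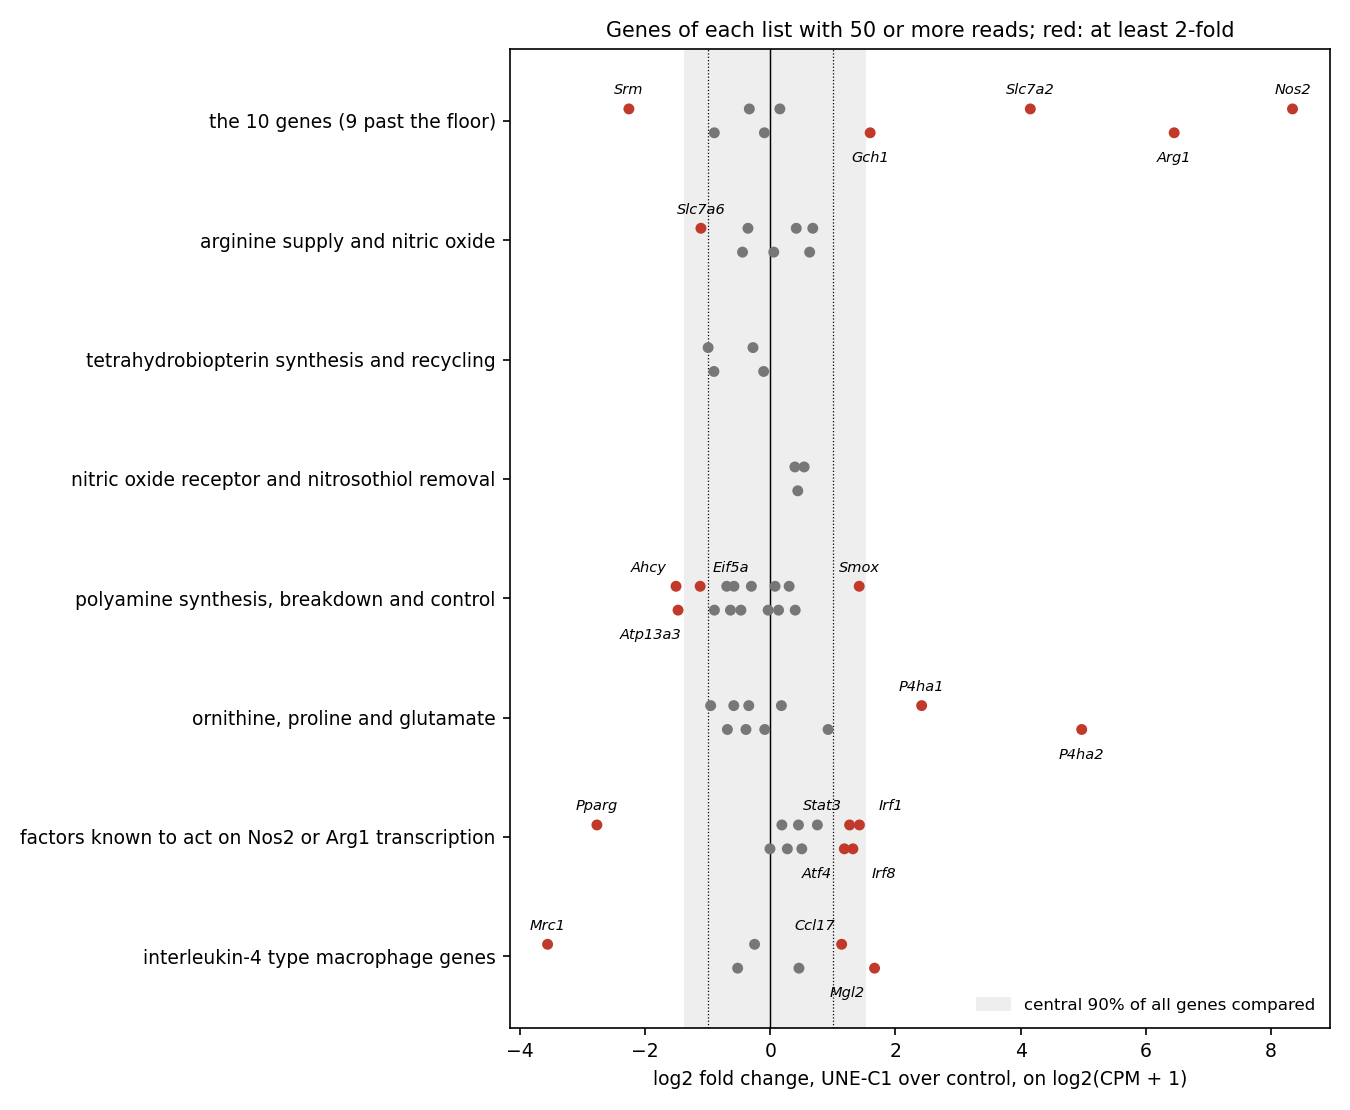
Log2 fold change, UNE-C1 over control on log2(CPM + 1), of the genes with 50 or more reads in each list; each point is a gene, red past the 2-fold bounds (dotted) and grey within them, and the band is the central 90% of all genes compared. The points for Nos2, Arg1 and Slc7a2 lie far to the right of the band at 8.34, 6.45 and 4.15, and most points of the other pathway lists lie inside it.

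Transcription factors known to act on Nos2 or Arg1 were mixed. Of 11 measured, 4 exceeded the control by 2-fold or more and 1 was lower (median 0.50), beside 9.31% and 9.42% of all genes. With total counts, 1 was higher, Irf1, and 1 lower. Higher were Irf1, which drives Nos2 after interferon (ratio 2.70, interval 2.57 to 2.83), and Irf8, Stat3 and Atf4, with log2 fold changes of 1.32, 1.27 and 1.18. Pparg, a lipid-sensing receptor linked to Arg1 in interleukin-4-treated mouse macrophages, had 16 reads in the UNE-C1 library and 226 in the control (11.97-fold lower, interval 7.21 to 21.3). Cebpb, a known activator of Arg1, had a log2 fold change of 0.75, Rela 0.50 and Hif1a 0.45. Genes known with Arg1 from the interleukin-4 response were mixed. Of 11, 6 passed the floor, of which 2 were higher (Mgl2 and Ccl17, at 1.67 and 1.14; with total counts, Mgl2 alone), 1 was lower (Mrc1, 80 reads in the UNE-C1 library and 1291 in the control) and 3 lay within 2-fold (Ccl22 0.46, Chil3 -0.25, Clec10a -0.52). The 3′ ends of Mgl2 and Clec10a are 97.2% identical, so reads may have been split between them.

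In such bulk samples, fewer cells of a type and less RNA per cell cannot be told apart. Beside the marker counts below, 9.31% of all genes were higher and 9.42% lower by 2-fold or more. Of 12 neutrophil markers measured, none was at 0, all lay below 0 on the log2 fold change scale and 11 were at least 2-fold lower, with a summed level of 3214 CPM in the UNE-C1 library and 8327 CPM in the control. Summed levels were 6807 and 7604 CPM for 12 dendritic cell markers (11 past the floor, 1 higher and 2 lower by 2-fold or more). They were 5706 and 7629 CPM for 11 monocyte and macrophage markers (10 past the floor, 3 higher and 4 lower). Those of 9 mast cell, basophil and eosinophil markers were 804 and 1224 CPM (7 past the floor, 3 lower). Those of 5 erythroid and megakaryocyte markers were 168 and 358 CPM (4 past the floor, 1 lower). Markers of B, T and natural killer cells summed to 1.13 CPM in the UNE-C1 library and 3.41 CPM in the control, with Cd3e and Prf1 at 0. The dendritic cell markers Itgax, H2-Ab1, Flt3 and Zbtb46 were read in both libraries, and Cd209a was at 0 in both. In the UNE-C1 library and the control, Itgax stood at 246 and 759 CPM and H2-Ab1 at 2594 and 2732 CPM. Flt3 (4.37 and 8.55 CPM) and Zbtb46 (4.37 and 3.71 CPM) were low, beside a floor of 3.52 and 2.99 CPM. Xcr1 was higher by 2-fold or more, and Itgax and Clec9a were lower. Of the monocyte and macrophage markers, Csf1r stood at 1468 and 2335 CPM and Fcgr1 at 397 and 33.0 CPM. Whether the cells were dendritic cells or macrophages was not tested. What part these markers' cells had in the values of the 10 genes was not tested. The UNE-C1 library held 15975821 reads and the control 14857198, and the TMM factors were 0.888 and 1.13.

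**Figure D5:**
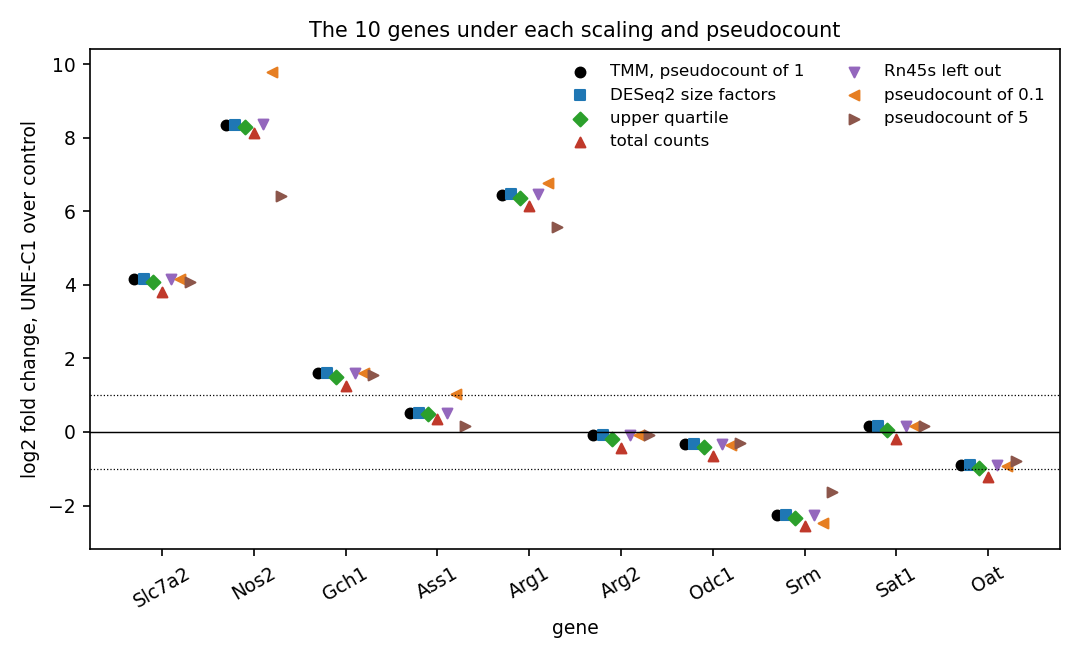
Log2 fold change of each of the 10 genes, UNE-C1 over control, under 3 other scalings, 1 gene left out and 2 other pseudocounts beside the one used, with the 2-fold bounds dotted. Nos2 spans 6.42 to 9.79 and Srm -2.56 to -1.63, while Oat crosses the lower bound with total counts.

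The 4 genes at least 2-fold higher were the same under every alternative tried, as the plot of fold changes by setting shows. Nos2 ranged from 6.42 with a pseudocount of 5 to 9.79 with 0.1, and rests on 7 control reads, while Slc7a2, read well in both libraries, ranged only from 3.81 to 4.17. Arg1 ranged from 5.56 to 6.76 and Gch1 from 1.26 to 1.61.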

How the data were processed

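Counts of reads per gene symbol came from 1 UNE-C1 and 1 control library, deposited by the authors as whole numbers with no normalization. The labels' protocols name a QuantSeq kit, which reads near the 3′ end, and an input of 500 ng total RNA. Bowtie2, edgeR and mm10 appear in the submitters' processing notes, without version or role. The counter, annotation, strand setting and handling of multiply mapped reads are not stated.

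Repeated symbols (35, in 79 of 23282 entries) were summed. CPM was computed with TMM library sizes (edgeR 4.0.16, R 4.3.3), and fold changes as log2((CPM + 1)/(CPM + 1)), UNE-C1 over control, which understates low genes. A gene was compared if either library held 50 or more of its reads (10469 of 15848 with a read). This floor is 3.52 CPM in the UNE-C1 library and 2.99 CPM in the control. With 1 library per group no p-value was computed. Ratio intervals are exact conditional binomial, share intervals Clopper-Pearson and read intervals exact Poisson, at 95% (scipy 1.17.1). They cover counting error only, since each group has 1 library. No molecular identifiers are named, so duplicate reads could make them too narrow even for that. A count of 0 was taken to allow 3 reads.

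The members, the 7 pathway lists and the 6 marker lists were chosen with earlier results of these data known; some listed genes are not reported here. The text names all members and, of each pathway list, genes past 2-fold and up to 3 others with most reads; Slc7a1, Slc7a3, Pts, Gchfr, Nos1, Nos3, Ddah1, Cps1, Agmat, Gucy1a3, Gucy1b3, Amd1, Amd2, Sms, Paox, Oaz1, Slc25a15, the copies and overlapping genes, and the marker genes were named after their values were seen. Similar 3′ ends (last 500 bases, at least 90% identity over 80 bases) were sought with blastn among GENCODE M21 transcripts. Of the member and pathway genes, 6 whose tails hold a dispersed repeat, Slc7a2 among them, were set aside there. The procedure was tested on simulated data that held counting error only, which says nothing of other error in these libraries.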

Additional observations from a re-analysis of the deposited data

How the results depend on the processing

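Scaling by total counts moved the median of all genes to a log2 fold change of -0.33. It gave 657 genes higher and 1693 lower by 2-fold or more, against 975 and 986 with TMM. The members at least 2-fold lower were then 2, Oat joining Srm. The genes at least 2-fold lower numbered 579 with a floor of 200 reads and 484 with a pseudocount of 5. The numbers of members higher and lower did not move with DESeq2 size factors, upper-quartile scaling, Rn45s left out, pseudocounts of 0.1 and 5, no floor or a floor of 200 reads. Slc7a6 and Ahcy were within 2-fold with a pseudocount of 5. With Vti1b reads added, chosen after the data were seen, Arg2 had a log2 fold change of -0.06. The list medians after scaling by total counts were -0.80 for polyamine genes, -0.91 for tetrahydrobiopterin genes and 0.16 for the transcription factors. Depth limits Nos2 and Arg1 in the control. No paired analysis was possible because each group has 1 library.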
